A study of Homo sapiens with 4 samples.

Results

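Chromosome 13 carried 167 protein-coding genes that were expressed in HT8 cells and were followed here along the chromosome. They were the protein-coding genes of GENCODE 29 on chromosome 13 whose FPKM averaged 1 or more over the 4 libraries, which left 180 of 321, and 13 of these 180 were set aside by name (RPL21, CDX2, KLF5 and CARS2 among them). FPKM is reads counted in a gene, scaled to exon length and to sequencing depth. The chromosome was selected on measured values, the log2 fold changes of its genes in these same libraries, so its shift is described here without a test. The genes nearest to the FPKM limit were IL17D, TDRD3 and WDFY2 just inside it, at 1.05, 1.14 and 1.19 FPKM, and SERP2, CCDC122 and COL4A2 just outside it, at 0.792, 0.774 and 0.704 FPKM.

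HT8 is a human cell line, with colon cancer as its labelled tissue, and 12777 genes of any kind reached a mean of 1 FPKM in it. Of the 4 RNA-seq libraries, 2 carried the genotype label PPDPF knockdown (source name HT8-cas1) and 2 the label control (source name HT8), with no treatment or time given. The labels leave out how the knockdown was made, whether HT8-cas1 was a clone and whether replicates were separate cultures, so each p-value reflects the spread between these libraries alone, which may be technical. PPDPF, the gene named in the label, had 281 and 283 FPKM in the libraries labelled knockdown, against 237 and 266 FPKM in the controls. Its log2 fold change was 0.16 (SE 0.06, limma adjusted p = 0.0940), and it passed the threshold as higher in 4 other settings: voom on recovered reads (0.0105), without control replicate 2 (0.0233), protein-coding genes alone (0.0310) and genes averaging 5 FPKM or more (0.0459). The targeted gene was not lower, so it gives no check of the labels. The group is therefore called the libraries labelled knockdown throughout. Reads in genes numbered 17330674 and 17069628 in the libraries labelled knockdown and 17348315 and 19479906 in the controls. All 9 epithelial and colonic markers, among them KRT8 and EPCAM, reached 1 FPKM in at least 1 library, and their FPKM summed to 3102 to 3125 in the libraries labelled knockdown and 2582 to 2757 in the controls. KRT20 reached 1 FPKM only in the libraries labelled knockdown, at 2.61 and 2.94 FPKM, against 0.339 and 0.717 FPKM in the controls. CDH1 alone was lower in both libraries labelled knockdown than in both controls, at 107 and 111 FPKM against 119 and 121 FPKM. Of 6 leukocyte, 6 fibroblast and 4 endothelial markers, 1 reached 1 FPKM, the monocyte gene CD14 at 0.860 and 0.907 FPKM in the libraries labelled knockdown and 1.57 and 1.86 FPKM in the controls. The leukocyte list summed to 1.21 to 1.26 FPKM in the libraries labelled knockdown and 2.01 to 2.18 FPKM in the controls. In all 4 libraries 3 leukocyte, 2 fibroblast and 2 endothelial markers were listed at 0, PTPRC, COL1A2 and CDH5 among them. Others were above 0 in each library, such as LYZ, PDGFRB and VWF at up to 0.419, 0.485 and 0.0725 FPKM. The part of these markers in the results was not tested.

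Chromosome 13 is an acrocentric chromosome: its short arm holds ribosomal RNA genes, and its protein-coding genes lie on the long arm, which is poor in genes for its length. The long arm carries the tumour suppressor RB1 and the colon transcription factor gene CDX2, and gain of extra copies of it is a recurrent alteration of colorectal cancer. Its genes serve many unrelated roles. The number of DNA copies was not measured in these libraries.

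Most members were higher in the libraries labelled knockdown, by a modest amount. The members took 1.491% and 1.499% of the reads in genes in the libraries labelled knockdown, against 1.22% and 1.22% in the controls. The median over the 167 members of the ratio of mean FPKM, knockdown over control, was 1.24, with quartiles of 1.08 and 1.42, where the median over all genes tested was 1.00. On the scale of log2(FPKM + 1), used for the tests, the median log2 fold change of the members was 0.25, with quartiles of 0.10 and 0.41, beside a median of 0.00 and quartiles of -0.14 and 0.16 over all 12777 genes. In 145 of 167 members (86.8%) the log2 fold change was above 0, as it was in 50.2% of all genes. Since the RNA came from whole cultures, more RNA per cell and more cells with a high level cannot be told apart.

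The shift was alike in each pair of libraries. The median of the members was 0.27 and 0.23 for knockdown replicate 1 over controls 1 and 2, and 0.28 and 0.25 for knockdown replicate 2 over controls 1 and 2. Between the libraries of a group it was 0.01 for both the knockdown pair and the control pair. Both libraries labelled knockdown lay above both controls for 123 members (73.7%, with 35.9% of all genes tested), below both for 12 (7.19%, with 33.8%), and the groups overlapped for 32. By limma, with p-values adjusted over all 12777 genes, 89 members rose (53.3%) and 6 fell (3.59%), where 16.8% of all genes rose and 13% fell. Selecting the chromosome on these same values favoured high shares, so these counts describe the members and are no test of the shift. Counts with a library left out reuse the same libraries. Leaving out control replicate 1 left 55 members that rose and 3 that fell, and leaving out knockdown replicate 2 left 58 and 2. Without control replicate 2 there were 64 and 2, and without knockdown replicate 1 there were 61 and 3. Of the 89, 50 passed whichever library was left out.

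**Figure D1:**
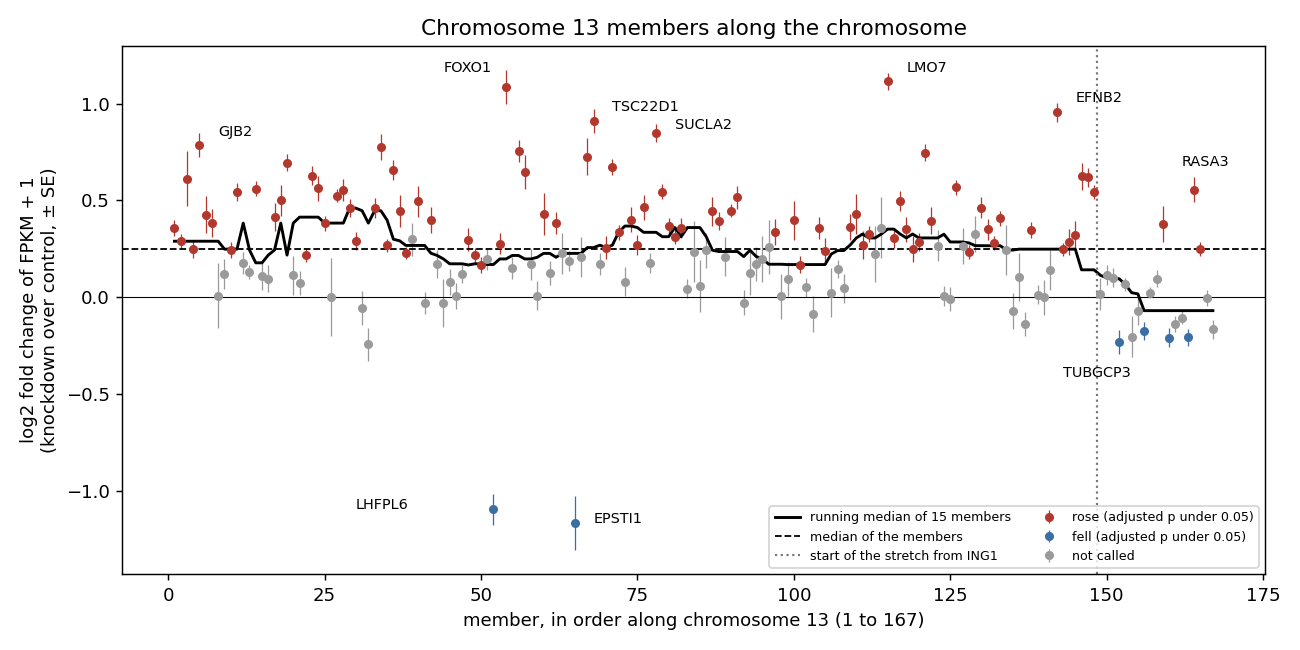
Each point is a member, placed by its order along chromosome 13 (x axis, 1 to 167), with its log2 fold change of FPKM + 1, knockdown over control, ± SE (y axis). Red points rose, blue points fell and grey points were not called; the black line is the running median of 15 members and the dashed line the median of all members, 0.25. The line stays above 0 over most of the chromosome and drops below it in the last stretch, right of the dotted line.

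Among the chromosomes, chromosome 13 had the highest median log2 fold change of protein-coding genes. It was followed by chromosome 7 at 0.15 and chromosome 8 at 0.06, and the lowest was chromosome 21 at -0.05. The other 19 chromosomes lay between chromosomes 8 and 21. The quartiles of chromosome 13 still reached down to 0.10, so part of its members showed a smaller difference than that.

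**Figure D2:**
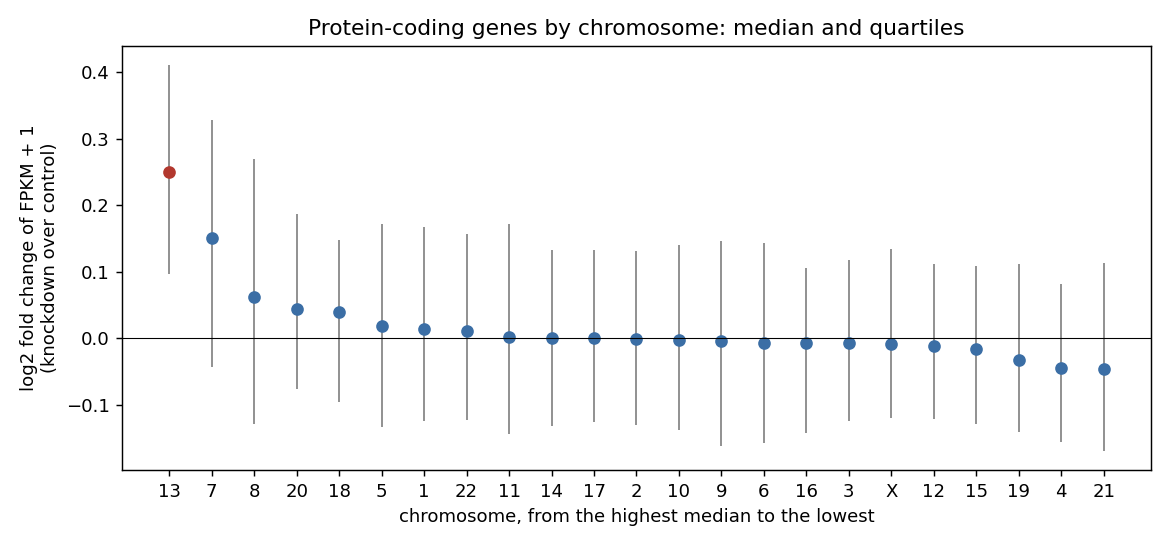
Median (point) and quartiles (bar) of the log2 fold change of FPKM + 1, knockdown over control (y axis), of protein-coding genes with a mean of at least 1 FPKM on each chromosome (x axis, from the highest median to the lowest). Chromosome 13, in red and without the genes set aside, stands highest at 0.25, above chromosome 7 at 0.15.

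Along the chromosome the shift was not even. In windows of 10 Mb by gene start on GRCh38, the median log2 fold change was 0.32 over the 4 members at 10 to 20 Mb, 0.38 over the 32 members at 20 to 30 Mb and 0.20 over the 17 members at 30 to 40 Mb. It was 0.31 over the 39 members at 40 to 50 Mb and 0.17 over the 13 members at 50 to 60 Mb. Expressed genes were rare further on: 1 of 7 protein-coding genes at 60 to 70 Mb was a member (TDRD3, at 0.02, not called), and 1 of 4 at 80 to 90 Mb (SPRY2, at 0.40). The 15 members at 70 to 80 Mb had a median of 0.33, the 12 at 90 to 100 Mb of 0.27 and the 12 at 100 to 110 Mb of 0.19. In the last window, from 110 Mb to the end, the 21 members had a median of 0.02, near that of the genome.

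The drop was marked at ING1, though single members on each side went the other way. Before it, PCCA, TMTC4 and TEX30 had log2 fold changes of -0.07, -0.14 and 0.01, none of them called. From ING1 on, ADPRHL1 had 0.38 and the highest member 0.56. The last 10 members before ING1 (TEX30 to NAXD, 102765990 to 110639993) had a median log2 fold change of 0.30, and the 19 members from ING1 to CHAMP1 (110712736 to 114337626) had one of 0.00. NAXD, the repair enzyme that restores hydrated NADH and NADPH, lies 72.7 kb before ING1, a reader of histone methylation, and CARS2, which was set aside, lies between them and overlaps ING1. NAXD had 33.3 and 34.7 FPKM in the libraries labelled knockdown, against 23.1 and 22.9 FPKM in the controls, with no overlap. ING1 had 4.998 and 5.57 FPKM in the libraries labelled knockdown, against 4.88 and 5.54 FPKM in the controls, which overlap. This stretch was marked off after its values were seen, so it was given no test. Its median was -0.01 and 0.02 for knockdown replicate 1 over controls 1 and 2, and -0.04 and 0.01 for knockdown replicate 2, while the 148 members before it gave 0.29, 0.25, 0.31 and 0.28 for the same pairs. In the stretch 3 of 19 members rose (15.8%) and 4 fell (21.1%), against 86 of 148 that rose (58.1%) and 2 that fell (1.35%) before it. Of all genes tested, 16.8% rose and 13% fell.

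A gene was said to leave the common shift when it differed from the shift of its own chromosome, and not from 0. The shift of chromosome 13 was 0.30 on the scale of log2(FPKM + 0.1), that is 1.23-fold, and the smaller addition was used because adding 1 makes a shift look smaller in weakly expressed genes. After each chromosome's shift was subtracted, limma was fitted to all 12777 genes. Of the members, 57 left the shift (34.1%), 30 above it and 27 below it, where 28.7% of all genes left the shift of their chromosome, 15.7% above it and 13% below it. Large departures, at least 0.5 on the log2 scale, numbered 16 members (9.58%), 9 above and 7 below, where 9.21% of all genes had one. These shares were near the background, so leaving the shift was about as common here as elsewhere. The count depended on the libraries kept: 33 members left the shift without control replicate 1, 30 without control replicate 2, 30 without knockdown replicate 1 and 29 without knockdown replicate 2. With the shift taken as the running median of 15 neighbouring members, 42 left it.

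Once shifted, the members spread about as widely as other genes. The quartiles of the departure were -0.19 and 0.19 over the members and -0.15 and 0.17 over protein-coding genes of other chromosomes. Across the 167 members the departure had a Spearman correlation of -0.21 with the order along the chromosome, 0.11 with mean FPKM and -0.03 with exon length. These are descriptions over genes of the same libraries.

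The members furthest below the shift were EPSTI1 and LHFPL6, and the furthest above were FOXO1, LMO7 and EFNB2. Promoters of these members are printed to show where interferon and core promoter letters lie, except that of LHFPL6, which was not found in the RefSeq table. EPSTI1, known as an interferon-induced gene, is therefore the sole gene printed from below the shift. The sequences are the 250 bases before the gene's RefSeq start (GRCh38.p14), 5′ to 3′ on the gene's strand. Capitals mark matches on either strand to the interferon-stimulated response element (GAAA, any 2 bases, GAAA), CCAAT and TATAAA. EPSTI1 is at chr13:42992242-42992491 (minus strand), FOXO1 at chr13:40666642-40666891 (minus strand), LMO7 at chr13:75620184-75620433 (plus strand) and EFNB2 at chr13:106535663-106535912 (minus strand).
EPSTI1: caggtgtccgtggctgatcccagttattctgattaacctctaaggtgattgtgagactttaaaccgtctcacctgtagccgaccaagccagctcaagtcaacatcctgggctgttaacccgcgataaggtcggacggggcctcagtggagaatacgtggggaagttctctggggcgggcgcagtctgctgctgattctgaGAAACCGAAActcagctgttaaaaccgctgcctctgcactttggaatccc
FOXO1: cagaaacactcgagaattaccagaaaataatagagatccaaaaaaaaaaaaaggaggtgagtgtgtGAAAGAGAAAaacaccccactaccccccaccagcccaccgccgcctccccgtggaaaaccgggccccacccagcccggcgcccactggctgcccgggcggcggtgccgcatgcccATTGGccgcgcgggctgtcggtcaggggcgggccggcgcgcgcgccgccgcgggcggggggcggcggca
LMO7: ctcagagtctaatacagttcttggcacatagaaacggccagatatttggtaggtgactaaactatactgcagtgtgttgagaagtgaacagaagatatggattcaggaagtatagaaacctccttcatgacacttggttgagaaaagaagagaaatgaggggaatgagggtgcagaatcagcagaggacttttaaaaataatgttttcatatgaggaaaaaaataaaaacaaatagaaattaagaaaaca
EFNB2: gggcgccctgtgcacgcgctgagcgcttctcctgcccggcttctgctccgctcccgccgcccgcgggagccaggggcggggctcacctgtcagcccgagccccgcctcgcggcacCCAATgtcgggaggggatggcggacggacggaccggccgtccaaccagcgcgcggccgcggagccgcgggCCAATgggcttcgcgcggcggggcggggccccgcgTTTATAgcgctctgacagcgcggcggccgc
The interferon element began 50 bases before the start in EPSTI1 and 184 bases before it in FOXO1. Its letters were in 5 of the 143 members' promoters found in the RefSeq table (3.50%) and in 3.02% of the 35116 promoters there. The other 3 were GTF2F2, COG3 and ALG11. Of the 5, FOXO1, GTF2F2 and COG3 rose and ALG11 was not called. EPSTI1 was lower, but it passed the FPKM filter through the controls alone, so its direction was set by the filter. A link between the letters and direction was not tested. CCAAT was read at 2 places in EFNB2, 135 and 65 bases before the start, and on the other strand in FOXO1, and it was in 34.3% of the members' promoters and 32.0% of all. TATAAA was read on the other strand of EFNB2, 30 bases before the start, and it was in 6.29% of the members' promoters and 10.7% of all. None of the 3 motifs was found in this window of LMO7.

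EPSTI1 fell against the rise around it. EPSTI1 (ENSG00000133106, GRCh38 chromosome 13, 42886388 to 42992271), epithelial stromal interaction protein 1, had 0.459 and 0.311 FPKM in the libraries labelled knockdown, against 1.96 and 2.26 FPKM in the controls, from 39 and 26 reads and 170 and 219 reads. Both libraries labelled knockdown were far below both controls. The mean FPKM was 0.182 of control, the log2 fold change of FPKM + 1 was -1.17 (SE 0.14), and the gene lay -2.50 from the common shift (SE 0.34). EPSTI1 averaged 0.385 ± 0.104 FPKM in the libraries labelled knockdown and 2.11 ± 0.212 FPKM in the controls (SD, n = 2 each), so it passed the filter of 1 FPKM through the controls alone and had to be lower. Its values are therefore a description with no test, and the counts of members that fell or lay below the shift include it. Its call below the shift was also lost when either control was left out. The list of genes known elsewhere as interferon-induced had 3 members on the chromosome, and 2 of them rose. PHF11, a PHD finger protein, had 4.38 and 4.78 FPKM in the libraries labelled knockdown, against 3.21 and 2.995 FPKM in the controls, and its call was lost without control replicate 2, without knockdown replicate 2 and when weak genes were kept in the fit (by limma, adjusted p = 0.0599, 0.0615 and 0.0597). LACC1, an enzyme of purine nucleoside metabolism studied in macrophages, had 5.69 and 5.37 FPKM in the libraries labelled knockdown, against 3.27 and 2.65 FPKM in the controls. It rose (limma adjusted p = 0.00669) and lay 0.58 above the shift (limma adjusted p = 0.0253). That departure was lost without control replicate 2, knockdown replicate 1 or knockdown replicate 2 (by limma, adjusted p = 0.0762, 0.101 and 0.0770) and when weak genes were kept (0.0860).

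LHFPL6 was the other member that fell clearly. LHFPL6 (ENSG00000183722, 39209116 to 39603528), which encodes a tetraspan membrane protein, had 1.49 and 1.64 FPKM in the libraries labelled knockdown, against 4.34 and 4.63 FPKM in the controls. Its mean FPKM was 0.349 of control (log2 fold change -1.10, SE 0.08, limma adjusted p = 0.00183), and it lay -1.76 from the shift (SE 0.12, limma adjusted p = 0.00166). The neighbours on either side did not share its direction. NHLRC3 before it showed 0.20 on the log2 scale (limma adjusted p = 0.0536) and COG6 after it, a subunit of the Golgi tethering complex COG, 0.28 (limma adjusted p = 0.0185, a call lost whichever library was left out). Outside the stretch from ING1 on, LHFPL6 and EPSTI1 were the only members called lower, and the LHFPL6 call held whichever library was left out.

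Further members lay below the shift without a call against 0. Outside the last stretch, 14 members lay below it, and 12 of these were not called against 0, with log2 fold changes of -0.24 to 0.13. URAD, named for an enzyme of urate breakdown in other mammals, had 15 and 15.5 FPKM in the libraries labelled knockdown, against 16.7 and 19.9 FPKM in the controls. It lay -0.56 from the shift (limma adjusted p = 0.0123), a departure lost without knockdown replicate 1 (limma adjusted p = 0.0619), without knockdown replicate 2 (0.0515) and with no filter (0.0559). PDX1, a pancreatic and duodenal transcription factor gene that lies near CDX2, had 10.8 and 11.7 FPKM in the libraries labelled knockdown, against 12.8 and 10.7 FPKM in the controls, which overlap. BRCA2, which acts in the repair of broken DNA, had 5.07 and 4.84 FPKM in the libraries labelled knockdown, against 5.05 and 5.09 FPKM in the controls, and lay -0.33 from the shift (limma adjusted p = 0.0239). PDX1 and BRCA2 were named after their values were seen. Of the 14, only LHFPL6 kept its departure whichever library was left out, and 7 lost it in each case, BRCA2 among them (limma adjusted p = 0.0707 to 0.1097).

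FOXO1, LMO7 and EFNB2 rose most. FOXO1 (ENSG00000150907, 40469953 to 40666597), a forkhead transcription factor that insulin signalling keeps out of the nucleus, had 8.39 and 7.599 FPKM in the libraries labelled knockdown, against 2.97 and 3.52 FPKM in the controls. The ratio of means was 2.47, and the gene lay 0.98 above the shift (SE 0.11, limma adjusted p = 0.00464). LMO7 (ENSG00000136153, 75620434 to 75859870), a LIM domain protein of adherens junctions, had 24.8 and 23.6 FPKM in the libraries labelled knockdown, against 10.5 and 10.8 FPKM in the controls. The ratio of means was 2.28, and it lay 0.88 above the shift (SE 0.05, limma adjusted p = 0.00128). EFNB2 (ENSG00000125266, 106489731 to 106535662) encodes ephrin-B2, a membrane-bound ligand of Eph receptors. Its FPKM was 12.6 and 11.96 in the libraries labelled knockdown, against 5.81 and 5.87 in the controls, a ratio of 2.102 that lay 0.76 above the shift (SE 0.06, limma adjusted p = 0.00204). For each of the 3 the groups were well apart, and the departures held when any single library was left out (limma gave adjusted p = 0.0107 to 0.0307).

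**Figure D3:**
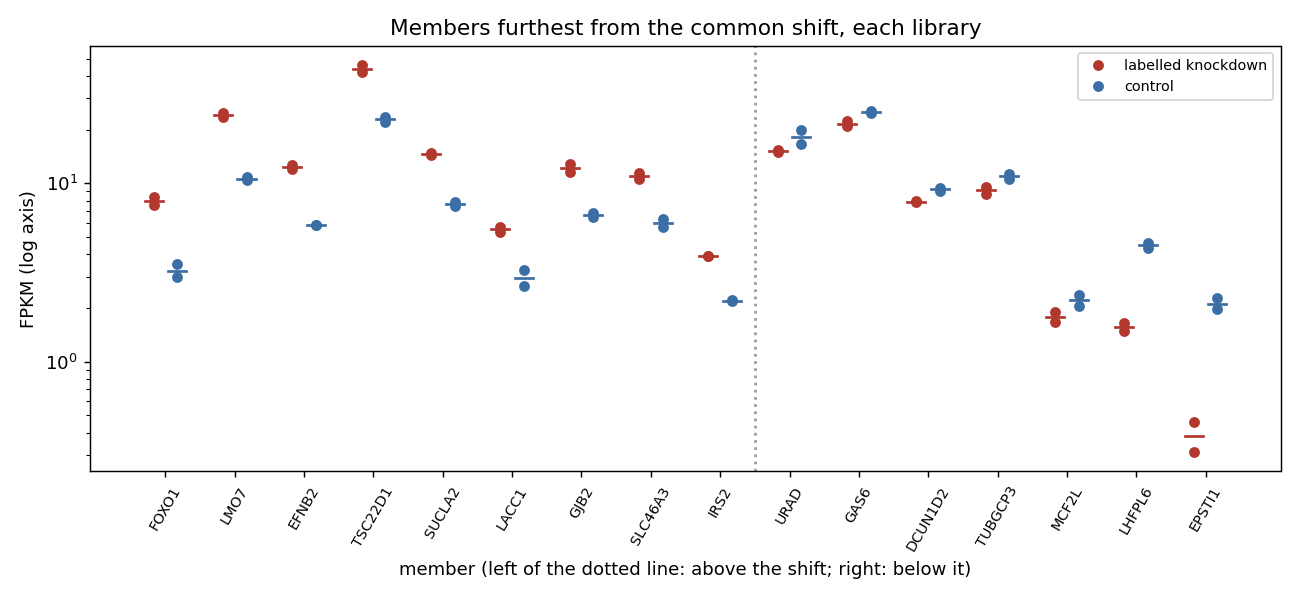
FPKM on a log axis (y axis) of the 16 members with large departures (x axis), each library as a point and each group's mean as a bar, with the libraries labelled knockdown in red left of the controls in blue. FOXO1, for example, had 8.39 and 7.60 FPKM in the libraries labelled knockdown against 2.97 and 3.52 FPKM in the controls. EPSTI1 had 0.459 and 0.311 FPKM in the libraries labelled knockdown against 1.96 and 2.26 FPKM in the controls. In all 16 genes the groups do not overlap, which selection for a large departure favours. Of all genes tested, 35.9% had both libraries labelled knockdown above both controls and 33.8% had both below.

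The other members well above the shift were of mixed roles. TSC22D1, a leucine zipper protein known as a TGF-beta-stimulated gene, had 41.9 and 45.9 FPKM in the libraries labelled knockdown, against 23.7 and 22.1 FPKM in the controls, and lay 0.64 above the shift (limma adjusted p = 0.00351). SUCLA2, a subunit of succinyl-CoA synthetase in the citric acid cycle, had 14.8 and 14.5 FPKM in the libraries labelled knockdown, against 7.904 and 7.48 FPKM in the controls, and lay 0.62 above it (limma adjusted p = 0.00273). GJB2, the gap junction protein connexin 26, had 11.6 and 12.8 FPKM in the libraries labelled knockdown, against 6.48 and 6.79 FPKM in the controls (departure 0.56, limma adjusted p = 0.00587). These 3 and the lysosomal transporter gene SLC46A3, at 11.5 and 10.6 FPKM in the libraries labelled knockdown and 5.72 and 6.29 FPKM in the controls (departure 0.56, limma adjusted p = 0.00756), kept their departures whichever library was left out. IRS2, an adaptor of the insulin receptor, had 3.94 and 3.93 FPKM in the libraries labelled knockdown, against 2.19 and 2.21 FPKM in the controls. Its rise held whichever library was left out, but its departure of 0.51 (limma adjusted p = 0.0192) did not (limma adjusted p = 0.07098 to 0.0811), nor did it with no filter (0.0507). All 30 members above the shift also rose against 0, which is close to built in, since the shift itself lies above 0. Of the 30, 12 kept their departure whichever library was left out.

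The members were also counted by role, and each count stands beside the 53.3% of all members that rose and the 3.59% that fell (16.8% and 13% of all genes tested). No role was tested against the others. Transcription and chromatin genes rose in 17 of 24 members (70.8%), and none fell, at a median log2 fold change of 0.29 beside 0.25 over all members. LMO7, described above as a protein of adherens junctions, was counted in this list and not among adhesion genes. LMO7, GTF2F2, GTF3A and TSC22D1 had the smallest p. GTF2F2, a subunit of the general transcription factor TFIIF, had 15 and 14.9 FPKM in the libraries labelled knockdown, against 9.05 and 8.97 FPKM in the controls (ratio of means 1.66, limma adjusted p = 0.00131). GTF3A, the 5S rRNA transcription factor TFIIIA, had 55.1 and 56.6 FPKM in the libraries labelled knockdown, against 38.1 and 38.9 FPKM in the controls (ratio 1.45, limma adjusted p = 0.00136). Its annotated span overlaps that of MTIF3, and reads of overlapping genes cannot be told apart here. MPHOSPH8, a reader of methylated histone H3 in the HUSH silencing complex and the member nearest the centromere, had 18.7 and 19.3 FPKM in the libraries labelled knockdown, against 14.8 and 14.3 FPKM in the controls. Its departure from the shift was 0.08 and was not called (limma adjusted p = 0.252).

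In the list of cell cycle and DNA repair, 10 of 23 members rose (43.5%) and 1 fell (4.35%), at a median of 0.17. RB1, which holds E2F factors in check before S phase, had 15.8 and 16.4 FPKM in the libraries labelled knockdown, against 11.9 and 12.8 FPKM in the controls. It rose (ratio 1.31, limma adjusted p = 0.00842) and its departure from the shift of 0.08 was not called (limma adjusted p = 0.321). PARP4, a poly(ADP-ribose) polymerase of vault particles, had 49.4 and 51.5 FPKM in the libraries labelled knockdown, against 29.9 and 31.7 FPKM in the controls, and lay 0.41 above the shift (limma adjusted p = 0.00471). CDK8, the kinase of the Mediator complex, had 16.2 and 16.8 FPKM in the libraries labelled knockdown, against 11.5 and 10.2 FPKM in the controls (ratio 1.52, limma adjusted p = 0.00457). CDC16, a subunit of the anaphase-promoting complex, had 24.4 and 24.8 FPKM in the libraries labelled knockdown, against 20.4 and 20.6 FPKM in the controls (ratio 1.198, limma adjusted p = 0.00812).

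The list of RNA processing and translation had 22 members, of which 16 rose (72.7%) and 1 fell (4.55%), at a median of 0.28. It also holds the nuclear transport genes KPNA3, IPO5, XPO4 and NUP58, which all rose. MBNL2, a muscleblind splicing regulator, had 33.6 and 31.99 FPKM in the libraries labelled knockdown, against 21.97 and 21.6 FPKM in the controls (ratio 1.505). KPNA3, a nuclear import adaptor, had a ratio of 1.38, MTIF3, the mitochondrial translation initiation factor 3, one of 1.5, and PAN3, of the poly(A)-trimming PAN2-PAN3 complex, one of 1.42 (limma adjusted p = 0.00195, 0.00373 and 0.00411). The most abundant member, TPT1, the translationally controlled tumour protein, had 166 and 176 FPKM in the libraries labelled knockdown, against 137 and 134 FPKM in the controls. It rose (limma adjusted p = 0.00469) and lay 0.04 from the shift (limma adjusted p = 0.519), with the caution that TPT1 and HMGB1 have processed pseudogenes that can share reads. HMGB1, a chromatin protein, had 77.4 and 75.7 FPKM in the libraries labelled knockdown, against 65.95 and 64.6 FPKM in the controls, and its departure of -0.07 was not called (limma adjusted p = 0.165).

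Ubiquitin and protein turnover genes rose in 13 of 20 members (65%) and fell in 1 (5%), at a median of 0.33. NDFIP2, an adaptor of NEDD4 family ubiquitin ligases, had 39.1 and 40.4 FPKM in the libraries labelled knockdown, against 22.5 and 24.1 FPKM in the controls, and lay 0.47 above the shift (limma adjusted p = 0.003796). UBL3, a membrane-anchored ubiquitin-like protein, had 18.8 and 17.4 FPKM in the libraries labelled knockdown, against 11.2 and 10.98 FPKM in the controls (departure 0.40, limma adjusted p = 0.00762). The ubiquitin ligase genes RNF6 and LNX2 rose with ratios of 1.58 and 1.41 (limma adjusted p = 0.00191 and 0.00341).

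Membrane traffic and transport genes rose in 12 of 21 members (57.1%), and none fell, at a median of 0.27. MICU2, a gatekeeper of the mitochondrial calcium uniporter, had 27.1 and 27.6 FPKM in the libraries labelled knockdown, against 17.9 and 18.6 FPKM in the controls (ratio 1.5, limma adjusted p = 0.00155). RAB20, a small GTPase of endosomes and phagosomes, had 31.9 and 30.96 FPKM in the libraries labelled knockdown, against 19.3 and 20.9 FPKM in the controls (ratio 1.56, limma adjusted p = 0.00197). SLC7A1, the cationic amino acid transporter CAT1, and TM9SF2, a Golgi and endosome membrane protein, rose with ratios of 1.21 and 1.33, and neither left the shift (limma adjusted p = 0.541 and 0.088).

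Metabolic genes rose in 9 of 23 members (39.1%), and none fell, at a median of 0.24, with SUCLA2, NAXD and LACC1 among those of smallest p. Receptors, ligands and signalling genes rose in 6 of 18 members (33.3%) and fell in 1 (5.56%), at a median of 0.21. The kinase STK24 rose with a ratio of 1.41 (limma adjusted p = 0.00515) and did not leave the shift (0.20, limma adjusted p = 0.0686). Adhesion, matrix and cytoskeleton genes had 8 members, of which 4 rose (50%) and 1 fell (12.5%), at a median of 0.21. ITM2B, a membrane protein whose mutants cause familial dementias, and LRCH1, an inhibitor of DOCK8, rose with ratios of 1.26 and 1.47 (limma adjusted p = 0.00567 and 0.00741). Of the 7 members in no list, 2 rose and none fell.

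Genes that start beside each other on opposite strands had values close to each other. Among the members, 15 such pairs had starts within 1000 bases of each other, and their log2 fold changes differed by a median of 0.11, where the 166 pairs of neighbours in order differed by 0.19, a difference that was not tested. LIG4, the ligase of DNA end joining, and ABHD13 start 11 bases apart and had log2 fold changes of 0.28 and 0.32. ELF1, an ETS transcription factor, and the spliceosome protein gene WBP4 start 166 bases apart, had 0.76 and 0.65, and both rose (limma adjusted p = 0.00181 and 0.00741). The widest gap was that of ATP7B, the copper-transporting ATPase, and ALG11, a mannosyltransferase of N-glycan synthesis, at 0.34 and 0.00. These pairs were named after their values were seen, and reads of overlapping first exons could be counted for either gene.

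The 19 members from ING1 to the end were described by name, with those outside the rule for named genes chosen after their values were seen. The 4 that fell did so by little, and each call was lost when some libraries were left out. GAS6, a ligand of the receptor kinase AXL, had 22.3 and 20.98 FPKM in the libraries labelled knockdown, against 25.4 and 24.8 FPKM in the controls (ratio 0.861, limma adjusted p = 0.0255). The GAS6 call was lost without control replicate 1, control replicate 2 or knockdown replicate 2 (limma gave adjusted p = 0.109, 0.0741 and 0.1001). TUBGCP3, of the gamma-tubulin ring complex, had 9.56 and 8.76 FPKM in the libraries labelled knockdown, against 11.3 and 10.6 FPKM in the controls (ratio 0.839, limma adjusted p = 0.0446). DCUN1D2, a cofactor of cullin neddylation, had 7.93 and 7.83 FPKM in the libraries labelled knockdown, against 9.46 and 9.07 FPKM in the controls (ratio 0.851, limma adjusted p = 0.0298). PCID2, of the TREX-2 mRNA export complex, had 13.4 and 12.6 FPKM in the libraries labelled knockdown, against 14.7 and 14.9 FPKM in the controls (ratio 0.877, limma adjusted p = 0.0447). TUBGCP3, DCUN1D2 and PCID2 lost their calls when any single library was left out (limma gave adjusted p = 0.0637 to 0.173, 0.07799 to 0.132 and 0.0697 to 0.163). The 4 calls were also lost with no filter on low values.

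The members of the stretch with the highest FPKM, TFDP1 and CUL4A, were close to the control level. TFDP1, the dimerization partner of E2F factors, had 98.5 and 94.8 FPKM in the libraries labelled knockdown, against 104 and 104 FPKM in the controls, and was not called against 0 (limma adjusted p = 0.0655). TFDP1 was called lower with voom (adjusted p = 0.00336), among genes averaging 5 FPKM or more (limma adjusted p = 0.0464) and with protein-coding genes alone (0.0417). It lay -0.41 from the common shift (SE 0.03, limma adjusted p = 0.00243). CUL4A, a ubiquitin ligase scaffold, had 50.9 and 51 FPKM in the libraries labelled knockdown, against 50.3 and 49.9 FPKM in the controls, which is 0.02 on the log2 scale (limma adjusted p = 0.593) and -0.28 from the shift (limma adjusted p = 0.004696). UPF3A, a factor of nonsense-mediated mRNA decay, had 18.2 and 17.8 FPKM in the libraries labelled knockdown, against 18.3 and 17.7 FPKM in the controls, which overlap. CHAMP1, a zinc finger protein of chromosome alignment and the last member, had 12.6 and 13.3 FPKM in the libraries labelled knockdown, against 14.3 and 15.1 FPKM in the controls, and lay -0.48 from the shift (limma adjusted p = 0.00485). CHAMP1 was not called against 0 (limma adjusted p = 0.0617), but was called lower with voom (0.00478), quantile normalization (0.0411), genes averaging 5 FPKM or more (0.0393) and protein-coding genes alone (0.0322). MCF2L, a guanine nucleotide exchange factor, had 1.68 and 1.898 FPKM in the libraries labelled knockdown, against 2.05 and 2.38 FPKM in the controls. Its departure of -0.59 (limma adjusted p = 0.0497) was lost when any single library was left out (limma gave adjusted p = 0.0939 to 0.182).

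In all, 13 of the 27 members below the shift lay in this stretch, and 8 of the 13 kept that departure whichever library was left out. Against the running median of 15 members, which includes the member itself, 1 of the 13 was still below. Of the 14 below elsewhere 11, and of the 30 above 23, were still called in the same direction. For most of the 13 that median was taken largely over the 13 themselves. It could hardly place them below, so this comparison is no test of the stretch. Within the stretch 3 members rose. RASA3, a GTPase-activating protein of Ras and Rap, had 5.05 and 5.42 FPKM in the libraries labelled knockdown, against 3.295 and 3.18 FPKM in the controls (ratio 1.62, limma adjusted p = 0.00496). Its call held whichever library was left out, but its departure of 0.37 above the shift did not. That departure was also lost with no filter (limma adjusted p = 0.0750). ADPRHL1, a gene of the ADP-ribosylhydrolase family, had 2.29 and 2.49 FPKM in the libraries labelled knockdown, against 1.55 and 1.66 FPKM in the controls, and its call (limma adjusted p = 0.0388) was lost when any single library was left out (limma gave adjusted p = 0.0974 to 0.151). CDC16, given above, lay near the shift of the rest of the chromosome, at -0.04 from it (limma adjusted p = 0.456).

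**Figure D4:**
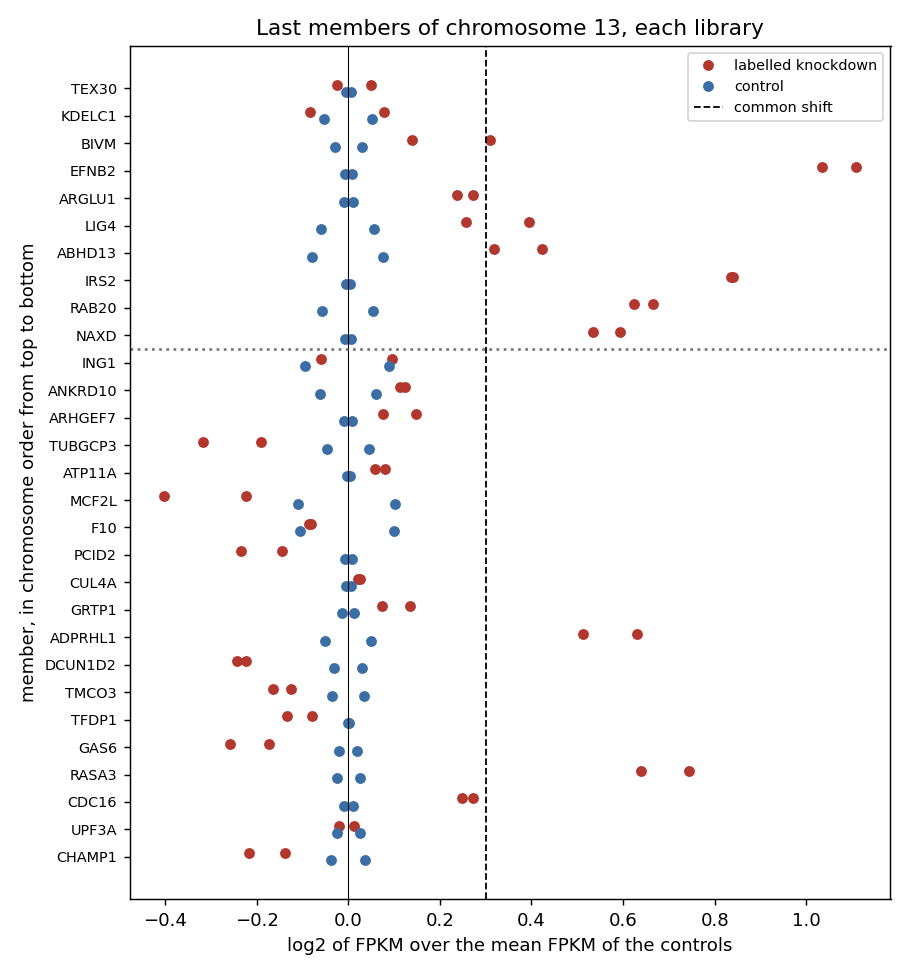
The last 29 members in chromosome order from top to bottom (y axis), each library as a point, as log2 of its FPKM over the mean FPKM of the 2 controls (x axis), with the libraries labelled knockdown in red above the controls in blue. Above the dotted line, 7 of the 10 members from TEX30 to NAXD rose, among them EFNB2; from ING1 on, below the line, most red points lie near 0, left of the dashed line that marks the common shift of 1.23-fold.

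The 13 genes set aside had a median log2 fold change of 0.32, and 9 rose and none fell, beside a median of 0.25 over the members. The 40 noncoding genes and pseudogenes of the chromosome with a mean of at least 1 FPKM had a median of 0.11, with 5 that rose and 3 that fell. Both sets stand beside the 16.8% of all genes tested that rose and the 13% that fell. The 141 protein-coding genes under 1 FPKM together had 71.8 and 68.4 CPM (reads scaled to depth) in the libraries labelled knockdown, against 61.5 and 66.3 CPM in the controls, and 72 of them were listed at 0 in each library. The 167 members had at least 26 reads in each library, with a median of 766 reads. The lowest count was that of EPSTI1 in knockdown replicate 2.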

How the data were processed

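The authors deposited FPKM per gene for 58735 genes, 1 table per library; HISAT2 2.0.5 and hg18 stand in the submitters' processing notes. No source used here gives the counting tool, annotation, strand setting or filters, so overlapping genes, antisense genes and near-identical copies may share reads. All 58735 gene IDs matched GENCODE 29, on GRCh38, whose coordinates are used although the notes name hg18. FPKM times the union exon length gave whole reads, within 0.01 of a read, for 100% of values above 0, and depths are sums of these reads. They cover counting error only.

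Genes averaging 1 FPKM or more entered limma-trend (limma 3.58.1 in R 4.3.3) as log2(FPKM + 1), with 2 residual degrees of freedom and two-sided p-values adjusted by Benjamini-Hochberg over 12777 genes; a call is an adjusted p under 0.05. Departures were fitted likewise on log2(FPKM + 0.1) after each chromosome's median difference was subtracted. Fits were tested on simulated data. Named genes are PPDPF, members with a large departure and a mean FPKM of at least 2, up to 4 members of smallest p per role list, the 6 most abundant, both ends and the interferon list; 1 of these is not reported here. Members, lists and rules were chosen with earlier results of these data known. Promoters are from RefSeq (GRCh38.p14), and 143 of 167 members matched. Alternatives were other filters, pseudocounts, scalings and thresholds, voom on recovered reads, a block on the replicate number, leaving out each library in turn, and, added after seeing the data, protein-coding genes alone and the members before ING1. Tables were handled in Python 3.11.15 (numpy 2.4.6, pandas 2.3.3) and figures drawn with matplotlib 3.10.9.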

Additional observations from a re-analysis of the deposited data

How the results depend on the processing

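The median log2 fold change of the members stayed above 0 in each setting tried. It was 0.28 over genes averaging 5 FPKM or more, 0.30 with a pseudocount of 0.1, 0.28 with voom on recovered reads, 0.27 without the stretch from ING1 on, and 0.25 to 0.28 with 1 library left out. The members that rose numbered 51 at an adjusted p under 0.01, and 55 to 64 with 1 library left out. Those that fell numbered 2 with no filter on low values, 2 at an adjusted p under 0.01 and 2 without the stretch from ING1 on, but 10 with protein-coding genes alone and 10 with voom, and 2 to 3 with 1 library left out. Members that left the common shift numbered 32 with no filter, 27 at an adjusted p under 0.01 and 29 to 33 with 1 library left out. Large departures numbered 10 with a pseudocount of 1, and 10 to 15 with 1 library left out. CUL4A had a log2 fold change of -0.00016 with voom and lay 0.10 above the running median of 15 members, itself included. The cause of these differences was not tested, except that a stricter threshold cannot leave more calls. The labels do not say that replicate numbers pair the libraries, and deviations of same-numbered libraries had a correlation of -0.0021 across 12777 genes and 0.153 across the members. With the replicate number as a block, 82 members rose, 5 fell and 48 left the shift, 15 of them by a large departure. Of the named members, MCF2L, CDK8, KPNA3, LNX2 and RASA3 then no longer left it (limma adjusted p = 0.0504 to 0.0642). In the main fit CDK8, KPNA3, LNX2 and RASA3 lay 0.30, 0.16, 0.19 and 0.37 above the shift. Each of these departures was also lost when some or all of the single libraries were left out. With 2 libraries a group and 26 reads at the lowest, small departures of weakly expressed members are the least certain.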
